A study of Mus musculus with 2 samples.

Results

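Coagulation and fibrinolysis genes were examined in mouse S100A4+ stromal cells sorted by fluorescence from the lung. They are the 9 genes F3, F5, F7, F10, F13a1, Thbd, Plau, Plaur and Serpinb2, chosen by gene symbol, and each was read by 1 probe, so that they hold 9 of the 25697 probes and 9 of the 16590 named genes on the array. The cells came either from metastatic lung of mice bearing tumours of 4T1, a mammary carcinoma line of BALB/c origin that spreads to the lung, or from normal lung. All mice were BALB/c animals with an S100A4-GFP transgene, in which green fluorescence stands in for S100A4, a calcium-binding protein of fibroblasts and of many migrating and immune cells. The sources used here state neither the ages of the mice nor whether animals were pooled. Total RNA was amplified and hybridised to Illumina bead arrays, with 1 array for metastatic lung and 1 for normal lung. There were no replicates, so no test was made, no difference has a replicate check, and an effect of the array cannot be told apart from one of the condition.

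Clotting starts when tissue factor (F3) on a cell surface binds factor VII (F7), and the pair activates factor X (F10). With its cofactor factor V (F5), factor X turns prothrombin into thrombin, thrombin turns fibrinogen into fibrin, and the transglutaminase factor XIII (subunit A, F13a1) crosslinks the fibrin strands. Thrombomodulin (Thbd) on the cell surface binds thrombin and redirects it to activate protein C, an anticoagulant. Urokinase (Plau), held at the cell by its receptor (Plaur), turns plasminogen into plasmin, which dissolves fibrin, and Serpinb2 (plasminogen activator inhibitor type 2) inhibits urokinase. Most circulating clotting factors are made in the liver, while macrophages, megakaryocytes, endothelium and other cells of the tissue make several of these proteins locally.

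The fibrin-crosslinking gene F13a1 differed most, at 4.32-fold higher in metastatic-lung cells than in normal-lung cells. Plaur, the urokinase receptor gene, was 1.73-fold higher, while Plau, the gene of its ligand, was 1.54-fold lower and Thbd 1.65-fold lower. F10 differed by 1.14-fold. F5 was detected in metastatic-lung cells only, and F3, F7 and Serpinb2 were detected on neither array. All folds are metastatic lung over normal lung after background correction, with a constant of 16 added to every value, which makes the folds of dim genes smaller than the true ones.

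F13a1 and Plaur were the members with the highest ratios among those detected on both arrays, and their promoter sequences are shown for that reason. The sequences are from RefSeq on GRCm38.p6, from 250 bases before an annotated transcript start to 50 bases after it, 5′ to 3′ on the gene's strand. F13a1 has a pair of annotated starts, both shown. Capitals mark matches to TGANTCA, the binding motif of the AP-1 factors, or to GAGGAA, a core motif of the myeloid factor PU.1, searched on both strands. The motifs were chosen with the sequences in view.
F13a1, upstream start, chr13:37050195-37050494, minus strand: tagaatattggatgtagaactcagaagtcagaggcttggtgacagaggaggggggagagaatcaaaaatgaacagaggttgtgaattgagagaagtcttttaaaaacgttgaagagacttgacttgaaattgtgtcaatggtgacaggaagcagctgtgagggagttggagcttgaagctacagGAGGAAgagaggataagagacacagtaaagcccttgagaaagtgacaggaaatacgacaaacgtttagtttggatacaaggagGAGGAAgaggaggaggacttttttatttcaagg
F13a1, downstream start, chr13:37049164-37049463, minus strand: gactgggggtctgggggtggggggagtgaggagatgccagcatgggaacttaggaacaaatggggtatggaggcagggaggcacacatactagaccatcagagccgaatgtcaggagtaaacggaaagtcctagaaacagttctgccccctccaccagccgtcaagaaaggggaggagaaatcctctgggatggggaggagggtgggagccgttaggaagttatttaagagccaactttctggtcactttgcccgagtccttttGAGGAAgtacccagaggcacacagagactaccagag
Plaur, chr7:24462233-24462532, plus strand: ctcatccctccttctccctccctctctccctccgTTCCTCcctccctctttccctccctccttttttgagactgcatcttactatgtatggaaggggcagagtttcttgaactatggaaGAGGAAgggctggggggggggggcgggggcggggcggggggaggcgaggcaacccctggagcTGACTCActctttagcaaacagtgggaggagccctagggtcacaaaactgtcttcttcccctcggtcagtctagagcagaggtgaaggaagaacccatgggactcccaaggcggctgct
The Plaur promoter held 1 match to TGANTCA and 2 to GAGGAA. The upstream F13a1 window held 2 matches to GAGGAA and the downstream one held 1, and TGANTCA had 0 matches in either. Over all 32851 promoter windows of this length, 7.81% held TGANTCA and 28.3% held GAGGAA. These matches describe the letters and were not tested as binding sites.

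Each array gave signals for all 25697 probes, with a median of 66.1 for metastatic lung and 72.2 for normal lung. A probe was called detected where its deposited detection p, whose even steps read as the share of negative controls that were at least as bright, was below 0.01. That held for 40.9% of probes on the metastatic-lung array and for 42.6% on the normal-lung array, and 6904 genes were detected on both. The sorting gene S100a4 had a signal of 1122 in metastatic-lung and 743 in normal-lung cells (1.43-fold higher). Against the stromal label, 8 of 11 fibroblast markers were detected, 5 of them on both arrays, and the fibroblast genes Col1a1, Lum and Tcf21 were detected on neither. Lyz2, a lysozyme gene of macrophages and other myeloid cells that was picked after its values were seen, had a signal of 3097 in metastatic-lung and 2717 in normal-lung cells. The only error these data offer is the spread between probes of a gene. For 1648 genes that had 2 probes detected on each array, this spread was an SD of 0.25 in the log2 ratio per probe, and it was 0.20 where the dimmer probe lay above log2 9. It covers neither the animals, nor the sort, nor the amplification. The members have 1 probe each, so that no member has a further probe to set beside it.

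The initiating pair F3 and F7 was not detected in these cells at this signal over background. The F3 probe, for tissue factor, had a signal of 60.1 in metastatic-lung cells (detection p 0.153) and of 65.2 in normal-lung cells (detection p 0.123). Neither value passed the detection threshold, and they lay close together. The F7 probe had a signal of 56.9 in metastatic-lung cells (detection p 0.268) and of 82.1 in normal-lung cells, where the detection p of 0.01003 missed the threshold narrowly. No fold is given for F3 or for F7. With a detection threshold of 0.05, F7 was detected in normal lung only and was at least 1.26-fold lower in metastatic lung.

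F10 and F5 make up the complex that produces thrombin. F10 had a signal of 1953 in metastatic-lung cells and 1597 in normal-lung cells, well above background on both. Its normalized log2 value was 10.85 in metastatic lung and 10.66 in normal lung, a log2 ratio of 0.19, which is smaller than the spread between probes. In the RefSeq gene order of mouse chromosome 8, F10 lies between F7 and the protein Z gene Proz. Of these 3 neighbours F10 was detected on both arrays, and F7 and Proz were detected on neither.

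F5, the cofactor gene, had a signal of 93.8 in metastatic-lung cells (detection p 0.00125) and of 64.4 in normal-lung cells (detection p 0.148). It was therefore detected in metastatic lung only, and its ratio is known only as a bound. Such a bound sets the bright value against the lowest value among detected probes of the dim array, which was log2 5.25 for normal lung. F5 was at least 1.51-fold higher in metastatic-lung cells by that measure, while the measured log2 ratio was 1.24.

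F13a1 had a signal of 1098 in metastatic-lung cells and 278 in normal-lung cells. The normalized log2 value was 9.99 in metastatic lung and 7.88 in normal lung, a log2 ratio of 2.11. This is several times the spread between probes. Among the 6904 genes detected on both arrays, F13a1 ranked 30th from the highest ratio, and 0.435% of these genes had a ratio as high or higher. The processed values that the authors deposited were 1067 for metastatic lung and 309 for normal lung.

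Thbd, whose product turns thrombin toward anticoagulation, had a signal of 1486 in metastatic-lung cells and 2230.3 in normal-lung cells. The normalized log2 value was 10.42 in metastatic lung and 11.15 in normal lung, a log2 ratio of -0.73. The difference exceeds the spread between probes and is short of 2-fold. A ratio as low or lower was found for 11.02% of the genes detected on both arrays.

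The urokinase gene and the gene of its receptor differed in opposite directions. Plau had a signal of 476 in metastatic-lung cells and 677 in normal-lung cells. Its normalized log2 value was 8.74 in metastatic lung and 9.37 in normal lung, a log2 ratio of -0.62, and 12.8% of genes detected on both arrays had a ratio as low or lower. Plaur had a signal of 2243 in metastatic-lung cells and 1229 in normal-lung cells. Its normalized log2 value was 11.07 in metastatic lung and 10.28 in normal lung, a log2 ratio of 0.79, and 8.78% of genes had a ratio as high or higher. The ratios of Plaur and Plau lay 1.41 apart on the log2 scale, and each alone was short of 2-fold. The spread of 0.25 per probe is for 1 ratio, and a difference of 2 ratios carries the spread of both.

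Serpinb2, the urokinase inhibitor gene, had a signal of 70.5 in metastatic-lung cells (detection p 0.0251) and of 59.0 in normal-lung cells (detection p 0.385). It was detected on neither array, and no fold is given. With a detection threshold of 0.05 it was detected in metastatic lung only, and was at least 1.21-fold higher there.

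**Figure D1:**
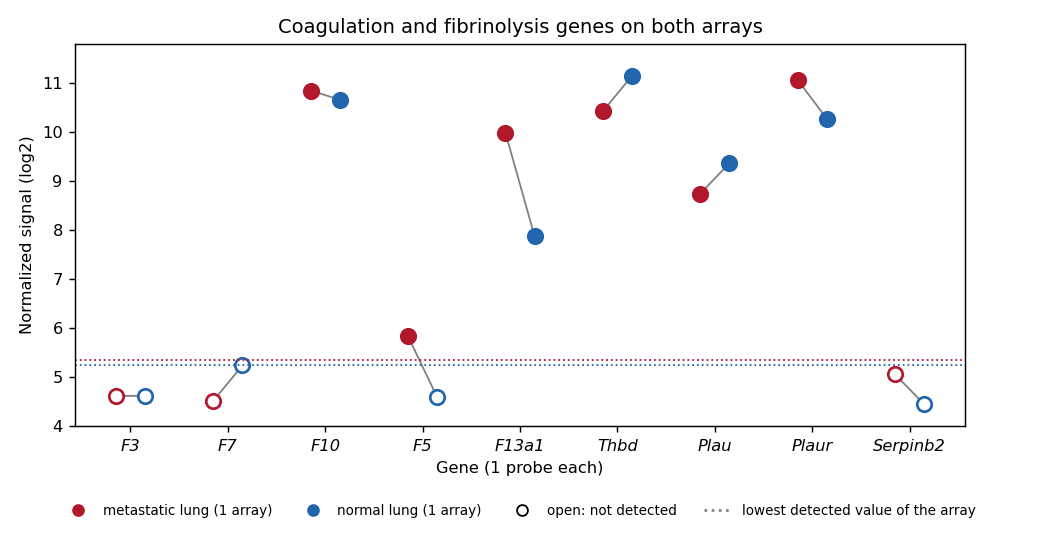
Normalized signal (log2) of each coagulation and fibrinolysis gene in S100A4+ cells of metastatic lung (red, left) and normal lung (blue, right), 1 array each, with no error bars because there are no replicates. Filled points were detected, open points were not, and dotted lines mark the lowest detected value of each array; F13a1 shows the widest gap, at 9.99 against 7.88, and F3, F7 and Serpinb2 have open points only.

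In order of their log2 ratio, the members detected on both arrays were F13a1 (2.11), Plaur (0.79), F10 (0.19), Plau (-0.62) and Thbd (-0.73). Plau and Thbd differed from each other by 0.10, less than the spread between probes. The next smallest step, between Plaur and F10, was 0.60. That spread is for 1 ratio, and a difference of 2 ratios carries the spread of both, so no separation is claimed for this step. Of the 6 members detected on at least 1 array, 2 were at least 2-fold higher (F13a1 and F5) and 0 were at least 2-fold lower. Over all 8128 genes detected on at least 1 array, 5.89% met the 2-fold limit upward and 10.2% met it downward. With genes detected on 1 array taken at their bounds, F13a1 alone was at least 2-fold higher, against 5.09% of all such genes upward and 8.16% downward. Counts this small are not read as a difference between these genes and the array as a whole. In numbers, 479 genes were higher and 826 lower, while the authors' processed values, with 16 added before log2, gave 133 higher and 369 lower. The median log2 ratio of the 6 members was 0.49, against 0.01 over all 8128 genes. With genes detected on 1 array at their bounds, these medians were 0.39 and 0.03. F5 is among the 6 only through its detection in metastatic lung, where it was brighter, so the choice of genes itself raises their median. Leaving out every gene that 1 array missed brought the medians to 0.19 for members and 0.05 for all 6904 such genes. Medians of so few members are not read as a difference from the array as a whole.

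**Figure D2:**
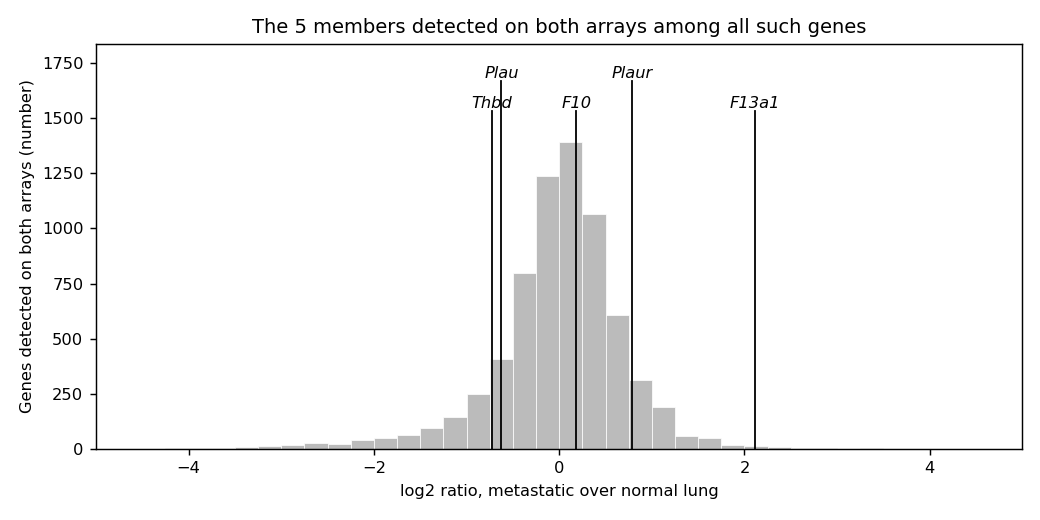
Number of genes by log2 ratio of metastatic over normal lung, for the 6904 genes detected on both arrays, with vertical lines at the 5 coagulation and fibrinolysis genes among them. F13a1, at 2.11, lies in the upper tail, F10 lies near the centre, and Plaur, Plau and Thbd lie on the shoulders, inside the 2-fold limits that hold 87.9% of these genes.

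The other genes of clotting and fibrinolysis were read from a list of 49 genes, of which 44 were on the array and 21 were detected on at least 1 array. Of these 21 genes 2 were at least 2-fold higher in metastatic-lung cells and 5 at least 2-fold lower. Over all 8128 genes detected on at least 1 array the shares were 5.89% upward and 10.2% downward. With genes at their bounds the counts were 2 and 4, against 5.09% and 8.16%. Counts this small, here and by role below, are not read as a difference from the array as a whole. The same shares stand against the cell type counts further below. The median log2 ratio of the 21 genes was -0.11. The 23 genes detected on neither array included those of the plasma proteins prothrombin (F2), the fibrinogen chains (Fga, Fgb, Fgg), plasminogen (Plg), antithrombin (Serpinc1) and protein C (Proc). Plat, the gene of the tissue-type plasminogen activator, was also detected on neither array, so that Plau was the one plasminogen activator gene measured above background. The 5 listed genes beyond those 44 were not analysed here.

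Among procoagulant genes, 8 of 18 were detected. Vwf, which encodes the von Willebrand factor of endothelium and platelets, had a signal of 122 in metastatic-lung and 329 in normal-lung cells and was 3.44-fold lower. Mcfd2 and Lman1, which encode the receptor that carries factors V and VIII out of the endoplasmic reticulum, were both higher. Mcfd2 had signals of 518 in metastatic lung and 271 in normal lung (2.03-fold higher), and Lman1 of 495 in metastatic lung and 352 in normal lung (1.41-fold higher). The Mcfd2 log2 ratio of 1.02 lies close to the 2-fold limit. Its remaining probes were detected on neither array, with log2 ratios of 0.02 and -0.02. Factor VIII itself (F8) was detected on neither array, and the factor IX gene F9 was detected in normal lung only and was at least 1.37-fold lower in metastatic lung. Vkorc1, the vitamin K reductase gene needed to make functional clotting factors, was 1.72-fold lower, with log2 ratios of -0.78, -0.49 and -1.12 on its 3 probes. The probes of its relative Vkorc1l1 disagreed, with log2 ratios of -0.38, 0.04 and -0.03. The kininogen gene Kng2 was 1.28-fold higher, with uncertain assignment because the mouse kininogen genes are close copies.

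Among anticoagulant genes, 5 of 13 were detected and Serping1 had the widest difference. Serping1, whose product C1 inhibitor blocks the contact and complement proteases, had a signal of 83.8 in metastatic-lung cells and 185 in normal-lung cells, and was 2.99-fold lower. Pros1, the gene of the protein C cofactor protein S, was well above background with a log2 ratio of 0.12. Tfpi, the inhibitor of the tissue factor pathway, was detected in metastatic lung only and near threshold, with a signal of 78.1 in metastatic-lung and 76.7 in normal-lung cells and a bound of at least 1.08-fold higher. The remaining 2 Tfpi probes were detected on neither array and were dimmer in metastatic lung, with log2 ratios of -0.25 and -0.46, so that no direction is given for Tfpi. Gas6, a vitamin K-dependent ligand gene related to protein S, was detected in normal lung only, and its bound gives no fold.

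Of 5 detected genes listed as fibrinolysis activators or receptors, 1 was at least 2-fold lower, and of 2 detected thrombin receptor genes 1 was at least 2-fold lower. Clec3b, which encodes the plasminogen-binding protein tetranectin, had a signal of 179 in metastatic-lung cells and 528 in normal-lung cells, and was 3.56-fold lower. S100a10, a partner of annexin A2 in plasminogen binding at the cell surface, had a log2 ratio of 0.04. F2r, which encodes the thrombin receptor PAR1, had a signal of 459 in metastatic-lung cells and 1020 in normal-lung cells, and was 2.47-fold lower. F2rl3, which encodes the further thrombin receptor PAR4, had a log2 ratio of 0.13. Among inhibitors of fibrinolysis, Thbs1, the gene of the plasmin-binding matrix protein thrombospondin 1, had a signal of 334 in metastatic-lung cells and 80.1 in normal-lung cells (detection p 0.0125), and was at least 7.60-fold higher.

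**Figure D3:**
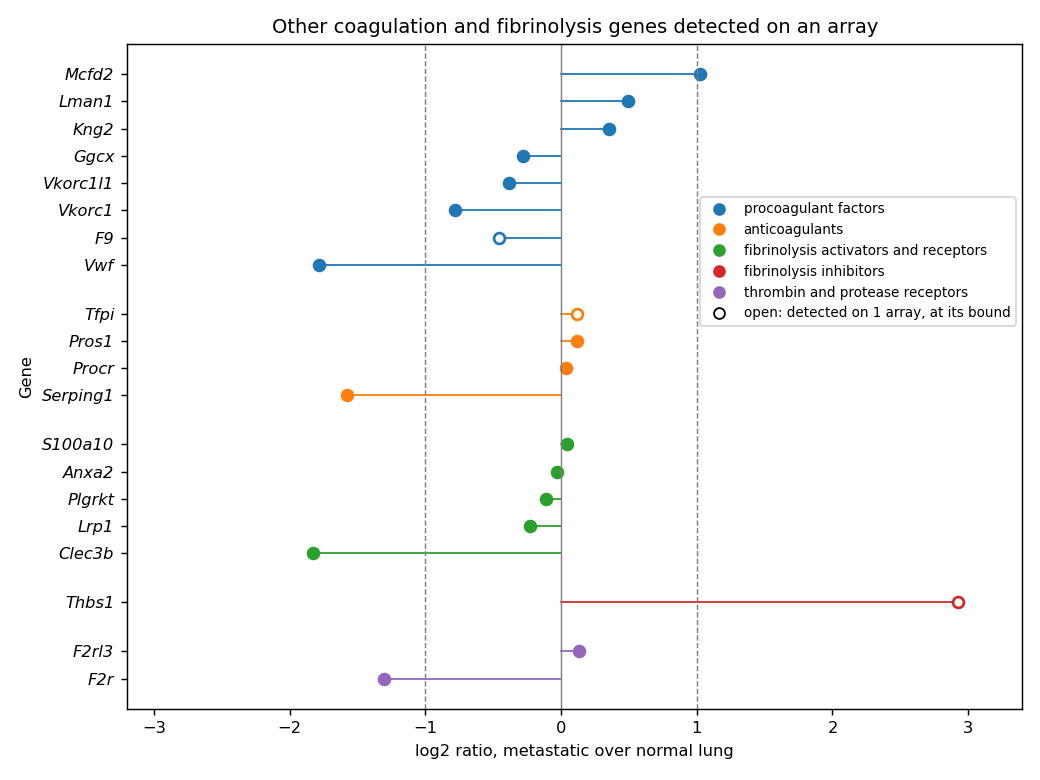
Log2 ratio of metastatic over normal lung for the other clotting and fibrinolysis genes detected on at least 1 array, 1 row per gene and 1 colour per role, with dashed lines at 2-fold. Open points are genes detected on 1 array, drawn at their bound; Gas6, whose bound gives no fold, is not drawn. Thbs1 lies farthest to the right, and Clec3b, Vwf, Serping1 and F2r lie beyond 2-fold on the left.

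Markers of cell types known to make these proteins also differed between the arrays, and in a bulk sample fewer cells of a type and less RNA per cell cannot be told apart. Sums below are of normalized signals less the constant, over all listed markers on the array. F13a1 is a gene of monocytes, macrophages and megakaryocytes. Of 10 monocyte markers, all detected on at least 1 array, 5 were lower by 2-fold or more and 1 was higher by that much (0 with genes at their bounds), and they summed to 4056 in metastatic lung and 11653 in normal lung. Without Chil3, a chitinase-like protein gene that was 5.72-fold lower, the other 9 summed to 3020.1 in metastatic lung and 5655 in normal lung. Ace was 7.29-fold lower, while 3 further genes, named after their values were seen, had ratios above 0: the chemokine receptor gene Ccr2 was 1.37-fold higher, Ly6c1 had a log2 ratio of 0.17, and Vcan was at least 1.75-fold higher. Of 13 macrophage markers 12 were detected, 1 of them higher by 2-fold or more and 7 lower by that much (6 at their bounds), and they summed to 7230.2 in metastatic lung and 8256 in normal lung. Car4 was at least 5.93-fold lower, Cd14 was 4.56-fold higher, and C1qa was detected on neither array.

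Platelet and megakaryocyte markers were detected for 5 of 10 genes, 4 of them at least 2-fold lower (2 at their bounds), and summed to 806 in metastatic lung and 1744 in normal lung. Ppbp, a chemokine gene of platelets, was 6.47-fold lower and Pf4, the platelet factor 4 gene, 4.17-fold lower. Gp9, with a signal of 644 in metastatic lung and 675 in normal lung, had a log2 ratio of -0.19. The integrin genes Itga2b and Itgb3 were detected on neither array. Of 14 neutrophil markers 13 were detected, 9 of them higher by 2-fold or more and 0 lower by that much, and they summed to 9248 in metastatic lung and 4515 in normal lung. Mpo was at least 51.3-fold and Ctsg at least 17.3-fold higher, and Cebpe was detected on neither array. Of the 13 detected, 11 had ratios above 0 and 2 below. Those below were S100a9, which was 1.80-fold lower, and Cxcr2, with a log2 ratio of -0.23. Among those above 0, Csf3r had a log2 ratio of 0.10. Plaur encodes a receptor of neutrophils and monocytes. Plaur was higher. The monocyte markers above summed to less in metastatic lung, although 3 of 10 had ratios above 0, and the neutrophil markers summed to more. The cell source of Plaur was not tested. Endothelial markers were detected for 11 of 14 genes, 10 of them at least 2-fold lower, and summed to 529 in metastatic lung and 5443 in normal lung. Robo4 was 11.7-fold and Tmem100 at least 13.5-fold lower, and Cdh5, Eng and Tie1 were detected on neither array. Of 7 mesothelial markers 5 were detected, 4 of them at least 2-fold lower (1 at its bound), with Gpm6a 4.10-fold lower and Wt1 at least 1.69-fold lower. Of 11 fibroblast markers 8 were detected, all 8 of them at least 2-fold lower (7 at their bounds). They summed to 486 in metastatic lung and 2569 in normal lung, with Inmt 5.95-fold and Pdgfra 5.21-fold lower. Of 12 epithelial markers 9 were detected, 3 of them at least 2-fold lower and 2 with ratios above 0. The most different, Scgb3a1 and Sftpa1, were 9.15-fold and 2.56-fold lower. In the mast cell and basophil list Mcpt8 was 3.72-fold higher and Gata2 2.50-fold lower. Hepatocyte markers (Alb, Apoa1, Ttr and Ahsg) were detected on neither array. The part of these cell types in the results was not tested.

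**Figure D4:**
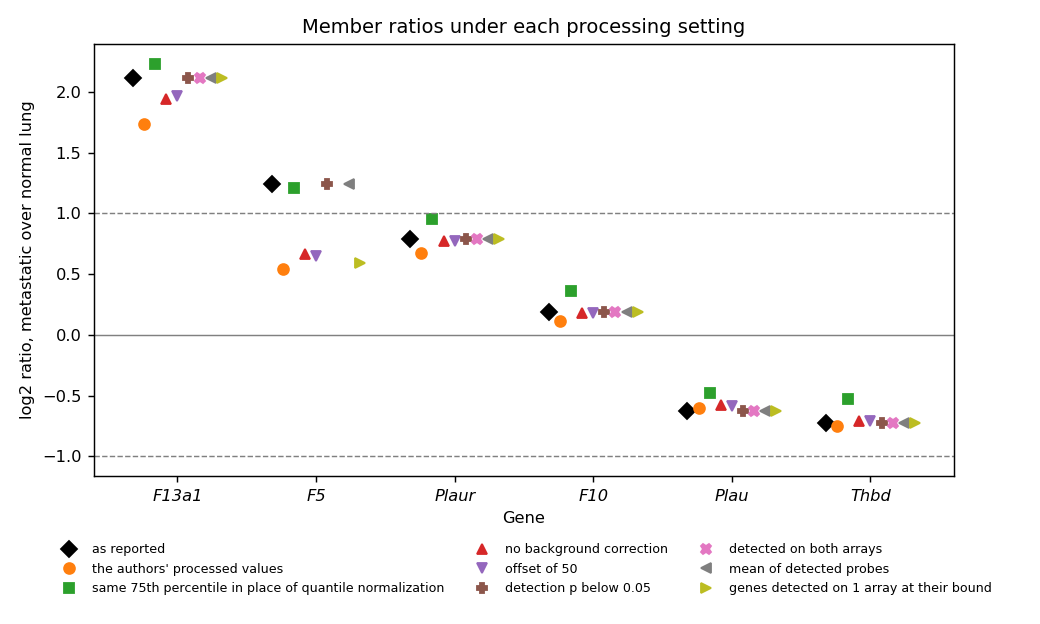
Log2 ratio of metastatic over normal lung for the 6 members detected on at least 1 array, under the reported setting (black diamonds) and 8 alternative settings, with dashed lines at 2-fold. F13a1 stays between 1.74 and 2.23, and F5 lies above the upper line in some settings and below it in others.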

How the data were processed

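Expression was measured in 2 samples, 1 for each group. The authors deposited non-normalized linear intensity values per probe, with a detection p-value beside each, per the file headers. Per the submitters' processing notes BeadStudio was used, with no version stated. RNA extraction used Qiagen RNeasy Plus Micro columns, and labelled cRNA came from a NuGEN WT-Ovation Pico kit, per the labels' protocols. A second deposited table holds processed intensity values, with medians of 96.0 (metastatic) and 87.2 (normal). Each column of it is a straight line of the same array's intensities (slopes 0.942 and 1.08, constants 33.8 and 9.31), so that it is linear and not centred. The sources used here do not state how the line was chosen.

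Intensities were background-corrected from the detection p-values (neqc, limma 3.58.1, R 4.3.3, offset 16), quantile-normalized and taken to log2. Background means were 54.5 (metastatic) and 58.3 (normal). Probes were named from a platform annotation updated to RefSeq (GRCm38.p6), which gave 1 symbol for 23978 probes, several for 0 and none for 1719. A gene was represented by its brightest probe. It was counted as higher at a log2 ratio of at least 1 with detection in metastatic lung, and as lower at -1 or less with detection in normal lung.

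The text names all members, the 8 highest and 8 lowest detected genes of the pathway list (Thbs1 to S100a10, and Clec3b to Gas6) and the 2 most different markers of each cell type list. Others were named after their values were seen. The members and lists were chosen with earlier results of these data known. Alternatives, which include the authors' processed values as log2(value + 16), changed the background, normalization, offset, detection threshold and probe rule. The steps were tested on simulated arrays, with changes set only in genes bright in normal lung. Changes in dim genes, and the bounds, were not covered. Python 3.11.15, pandas 2.3.3, numpy 2.4.6 and matplotlib 3.10.9 were used.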

Additional observations from a re-analysis of the deposited data

How the results depend on the processing

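With 1 array per group, no replicate could be left out, and no paired analysis was possible because each group has 1 sample and the labels carry no replicate numbers. Of 8 alternatives, 4 could not change the ratio of a member with 1 probe that was detected on both arrays. In the 4 others each such member kept its direction: with the reported value, log2 ratios ranged from 1.74 to 2.23 for F13a1, 0.68 to 0.96 for Plaur, 0.11 to 0.36 for F10, -0.62 to -0.48 for Plau and -0.75 to -0.53 for Thbd. F5 lost its 2-fold difference in the authors' processed values, here always with 16 added before log2 (0.54), without background correction (0.66), with an offset of 50 (0.65) and at its bound (0.59, added after seeing the data). In those 4 settings, and with detection on both arrays, the count of members at least 2-fold higher was 1. With detection on both arrays the member median was 0.19, over fewer genes. The count of pathway genes at least 2-fold higher was 1 in the authors' processed values, without background correction, with an offset of 50 and with detection on both arrays, and 3 pathway genes were lower in the authors' processed values. Over the whole table, 133 genes were higher and 369 lower in the authors' processed values, 210 and 492 without background correction, and 239 and 513 with an offset of 50, and 485 were lower with detection on both arrays. The cause of these differences was not tested. Signal over background limits F3, F7, F5 and Serpinb2.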
